A study of Homo sapiens with 6 samples.

Results

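The introns described here are among the shortest in the human genome. They are annotated introns of 50 to 100 nt, read as splice junctions, that is, as the positions that RNA-seq reads bridge between 2 exons. An intron was taken when a junction table listed it as annotated with a splice motif of the GT-AG, GC-AG or AT-AC type and its first and last base lay 50 to 100 nt apart, counting both. In all, 10281 introns met this rule, among 241220 annotated junctions with such a motif and 780566 junctions of any kind. They are called short introns below, and annotated introns of 101 nt or more are called longer introns.

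The data came from 6 libraries of K562, a human chronic myeloid leukaemia line. A group of 3 libraries came from cells labelled with a wild-type knock-in of U2AF1 (WT 1 to 3), and a group of 3 from cells labelled U2AF1 S34F (S34F 1 to 3), a serine-to-phenylalanine substitution in a zinc finger of that protein. Both groups share the K562 background, and no treatment or time is given for either. The labels do not say whether the libraries of a group came from separate clones or cultures, so p-values measure the spread between these libraries, which may be technical. The series concerns missplicing caused by mutant SF3B1, and its design compares S34F with wild-type U2AF1.

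An intron is removed after its ends have been recognised by the spliceosome. U2AF is a heterodimer that marks the 3′ end of an intron: its large subunit, U2AF2, binds the polypyrimidine tract and its small subunit, U2AF1, contacts the AG dinucleotide. Splice sites of long introns are mostly paired across the exon, whereas the ends of a short intron are close enough to be paired across the intron itself. Very short introns leave little room for the branch point, the polypyrimidine tract and the factors that bind them, and the protein RBM17 is known to take the place of U2AF on some short introns with a weak tract.

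The libraries held 18074706 to 39279169 uniquely mapped spliced reads, with S34F 3 the deepest and S34F 2 the shallowest. Short introns took 7.95, 7.68 and 7.82% of these reads in WT 1 to 3 and 7.96, 8.10 and 8.25% in S34F 1 to 3. The means were 7.82% ± 0.13 and 8.11% ± 0.15 (SD, n = 3 each), and the groups did not overlap. A two-sided exact permutation test of this gives p = 0.1, the smallest that 3 against 3 libraries allow. Without the 10 most-read short introns the shares were 6.09, 5.98 and 6.01% against 6.06, 6.02 and 6.63%, and the groups overlapped. Positions are hg19 coordinates, 1-based, as the files list them. Gene names, exons, sequences at the splice sites, marker genes of K562 and the U2AF1 codon itself were not analysed here.

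Short introns filled a narrow band of lengths. Their median length was 87 nt, the 10th and 90th percentiles were 76 and 97 nt, and 88 nt was the most frequent length, with 462 introns. The lower limit of 50 nt cut off few: the annotation held 4 introns of 49 nt and 6 of 50 nt, with 101 and 162 reads over the 6 libraries. The upper limit cut through a continuous distribution, with 280 introns of 100 nt and 324 of 101 nt, which had 156730 and 367821 reads.

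**Figure D1:**
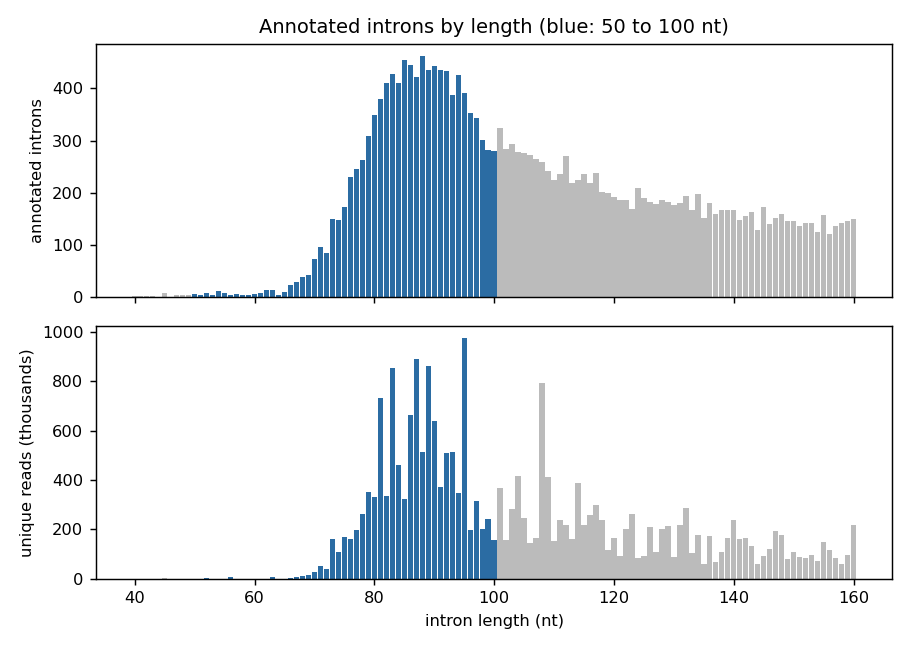
Number of annotated introns (upper panel) and unique reads over the 6 libraries (lower panel, axis in units of 1000 reads) at each intron length in nt; blue bars are the introns of 50 to 100 nt and grey bars the neighbouring lengths. The number of introns climbs from under 20 at each length below 66 nt to 462 at 88 nt, while the reads per length are uneven; the 10 most-read introns took 21.1 to 27.4% of the reads at short introns in a library.

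A unique read was found for 9716 of the 10281 short introns, and the other 565 were seen by multi-mapped reads alone. All 6 libraries had a unique read at 7166 of them, 4798 had at least 20 reads in every library and 124 had at least 1000. The median short intron had 181 reads over the 6 libraries, against 40 for longer introns. Chromosome 19 held the most, 1288, which was 8.29% of its annotated introns. Chromosome 16 followed with 906 (7.31%), whereas 888 on chromosome 1 were 3.67% of that chromosome's annotated introns. GC-AG ends were found at 183 short introns, 1.78% (95% Wilson interval 1.54 to 2.05%), against 1.59% of longer introns, and AT-AC ends at 8, 0.0778% (0.0394 to 0.153%), against 0.107%. Of the 8 AT-AC introns, only 1 of 99 nt on chromosome 12 (6672681 to 6672779) and 1 of 98 nt on chromosome 17 (79650625 to 79650722) had at least 20 reads in every library, and every read at their splice sites joined the same pair of ends. Lengths that are a multiple of 3 made up 32.1% of short introns (31.2 to 33.0%), and lengths 1 over a multiple of 3 made up 35.3% (34.4 to 36.2%); among longer introns these shares were 33.5 and 33.2%.

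A handful of introns carried a large part of the signal. The 10 most-read short introns took 21.1 to 27.4% of all reads at short introns in a library, and 4 of them lie in a row on the minus strand of chromosome 6, between 74227658 and 74228654. The most-read, 74227988 to 74228076 (89 nt), had 3522.5, 3205.8 and 3240.2 reads per 1000000 unique spliced reads (RPM) in WT 1 to 3 and 3716.9, 3771.7 and 3105.7 in S34F 1 to 3. Both the highest and the lowest of these values were S34F libraries, and the groups overlapped. Its neighbours of 95, 87 and 83 nt had 489957, 456616 and 424992 reads over the 6 libraries, against 509672 for the first. The other 6 were introns of 81 nt at 33243661 on chromosome 6, 93 nt at 79795176 on chromosome 10, 92 and 90 nt at 6646383 and 6645760 on chromosome 12, 90 nt at 153627738 on chromosome X and 79 nt at 2012658 on chromosome 16. At each of the 10, the intron held at least 99.86% of the reads at its 5′ and 3′ splice sites in every library. None of the 10 was called in any of the 4 comparisons below (edgeR's quasi-likelihood F-test, adjusted p of the level 0.83 to 0.952). The lowest adjusted p was that of the chromosome X intron, whose share at its 5′ splice site was 99.95, 99.97 and 99.98% in WT and 99.86, 99.95 and 99.87% in S34F (edgeR adjusted p = 0.0511).

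At the other end of the range, 56 short introns were 50 to 59 nt long, of which 6 had at least 20 reads in every library and 10 had no unique read. The shortest with 20 reads in every library was a GT-AG intron of 52 nt on the plus strand of chromosome 15 (45009990 to 45010041). It had 910, 454 and 399 reads in WT and 447, 514 and 419 in S34F, and no other junction used either of its splice sites. WT 1 stood above all the others, the rest lay between 399 and 514, and the groups overlapped. Next came 2 GC-AG introns of 53 nt on chromosome 16 (1495858 to 1495910) and 54 nt on chromosome X (54836251 to 54836304), both also alone at their splice sites. In RPM, the 53 nt intron was at 1.65, 1.44 and 1.81 in WT and 2.13, 1.27 and 3.82 in S34F. The 54 nt intron was at 0.983, 1.16 and 1.08 in WT and 2.56, 1.27 and 1.91 in S34F; these groups did not overlap, yet the edgeR adjusted p was 0.263. An intron of 56 nt on chromosome 5 (179044934 to 179044989) had 7591 reads over the 6 libraries and 99.1 to 99.8% of the reads at its 5′ splice site. The last of the 5, an intron of 57 nt on chromosome 17 (16285825 to 16285881), had 91.3 to 98.1% of the reads at its 5′ splice site, and 28.0% of its reads were multi-mapped. None of these 5 passed the test in any comparison it entered.

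Short introns shared their splice sites with other junctions less than longer introns did. Among sites with at least 20 reads in every library, 39.1% of short introns were the sole junction of their 5′ splice site, against 22.9% of longer introns, and 54.6% were the sole junction of their 3′ splice site, against 25.6%. The intron held over 99% of the reads at its 5′ site in 74.1% of cases and at its 3′ site in 81.9%, against 51.5 and 52.4% for longer introns. It held under 50% in 7.30 and 6.17% of cases, against 22.7 and 24.1%. The difference followed a trend with length that ran past 100 nt: sole use of the 5′ site went from 42.2% at 90 to 100 nt through 39.97% at 101 to 150 nt to 4.34% over 10000 nt. At the 5′ site the pattern turned below 70 nt, where 18.8% of 85 introns were the sole junction and 44.7% held under 50% of the reads. At the 3′ site it did not: 45.1% of 51 introns below 70 nt were the sole junction and 5.88% held under 50%. Introns of different lengths also differ in read depth, which bears on how many minor junctions are seen, and that was not tested.

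**Figure D2:**
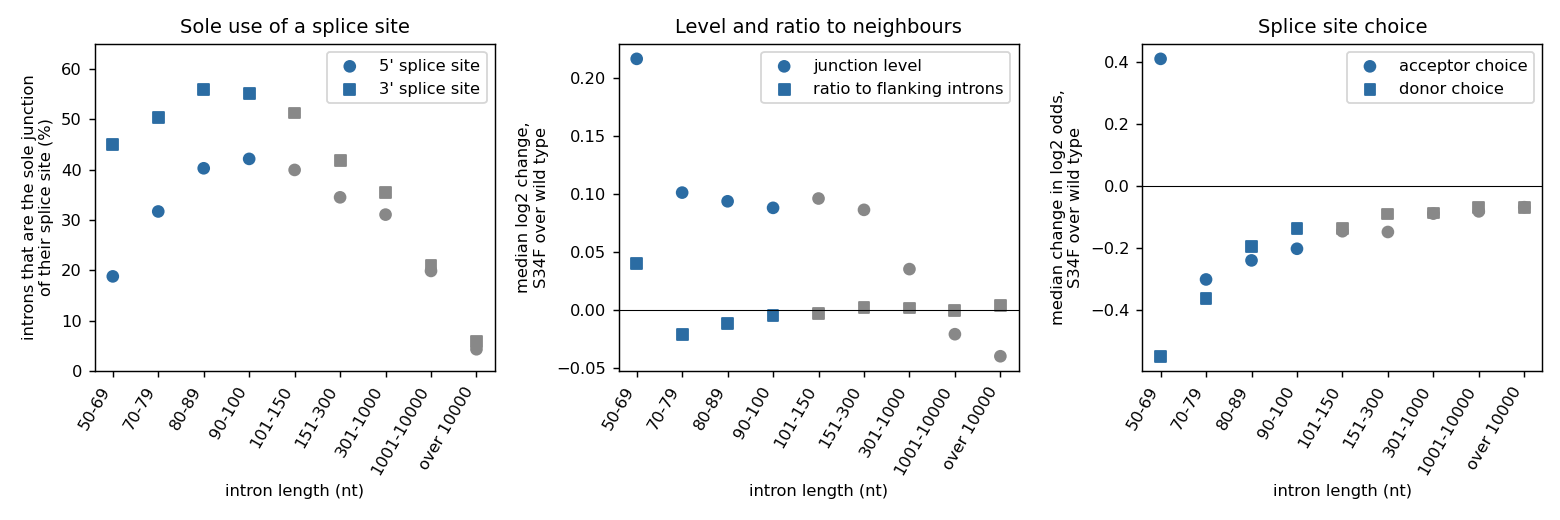
Left, share of introns (%) that are the sole junction at their 5′ splice site (circles) or 3′ splice site (squares), by intron length class. Middle and right, median change of S34F over wild type in each class: log2 junction level and log2 ratio to the flanking introns, and log2 odds of acceptor and donor choice. Blue points are the classes of 50 to 100 nt and grey points longer introns. Sole use peaks between 80 and 100 nt, and the level medians of all classes up to 300 nt lie between 0.086 and 0.216. The choice medians at 50 to 69 nt rest on 36 (acceptor) and 12 (donor) introns.

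Short introns tended to lie near other short introns. The neighbour on each side was the most-read annotated intron of the same strand within 500 nt, which can lie beyond the next intron. Of 7950 short introns with such neighbours on both sides, 24.7% had at least 1 short neighbour, and 317 had 2. Among other annotated introns with such neighbours, 7.14% had a short one. These flanking introns had a median length of 500 nt, against 1511 nt for those of other introns, while the stretches between had medians of 129 and 125 nt.

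The comparison of S34F with wild type was read in 4 ways, each fitted over all junctions of the series. Acceptor choice sets the reads of a short intron against all other junctions from its 5′ splice site, and donor choice against all others into its 3′ splice site. The flanking ratio sets them against the mean of the flanking introns, the most-read annotated one within 500 nt on each side. It thus covers introns with no competitor. The junction level is the read count itself, which mixes transcript abundance with splicing. A call needed a Benjamini-Hochberg adjusted p under 0.05 in edgeR's quasi-likelihood F-test and a difference of at least 10 percentage points in share, or of at least 1.5-fold for ratio and level. Over the 4 comparisons there were 51 calls, at 46 of the 10281 short introns. All 51 were at introns of 73 to 99 nt with GT-AG ends, which 98.1% of all short introns have. At 50 of them the values of the groups did not overlap, which the call rule itself favours.

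The choice of acceptor changed at few short introns, and mostly away from the short intron. Of 1211 short introns tested, 17 were called (1.40%), 4 higher and 13 lower in S34F. Over all 51522 junctions tested the share called was 2.11%, with 1.02% higher and 1.09% lower. That split is near even by design, since a gain of one junction is a loss of others at its site. Among 35864 longer introns tested 2.48% were called, 381 higher and 510 lower. Where the wild-type share was at least 50%, the calls were 2 higher and 12 lower at short introns. At longer introns with such a share they were 100 higher and 394 lower. The wild-type share is the baseline of the change, so a cut on it by itself favours falls at high shares and rises at low ones. An unadjusted p under 0.05 was reached by 197 short introns (16.3%), 163 of them with a lower share in S34F, and by 19.9% of all junctions. With no minimum difference, 43 of the 1211 short introns passed the adjusted p, 33 of them lower, beside 2386 of all 51522 junctions (4.63%). The 1211 are the introns whose competitors had at least 10 reads in all, hence a minority of the 10281. For both choices these reads were summed over the groups, so an intron whose competitors were read in S34F alone could enter. The part of this in the directions and medians was not tested. The count depended on single libraries: it was 31 without WT 1, 8 without WT 2, 10 without WT 3, 4 without S34F 2 and 0 without S34F 3 (edgeR, 107 short introns at an unadjusted p under 0.05). DESeq2 called 1 and limma 0, with 122 and 189 at an unadjusted p under 0.05.

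Skipping of the exon that follows the short intron was the main competitor at 11 of the 17 calls. For 509 of the 1211 introns (42.0%) the main competitor joined the same 5′ splice site to an acceptor beyond the next exon. The 11 calls were 2.16% of the 509, near the 2.11% of all junctions tested. These calls were 2 higher and 9 lower in S34F, and 104 of the 122 with an unadjusted p under 0.05 had a lower share of the short intron. The median change in log2 odds was -0.44 and 67.0% lay below 0. For 11780 longer introns with the same kind of competitor the median was -0.15, 55.6% lay below 0 and 295 were called (2.50%), 203 of them lower. With a wild-type share of at least 90%, the medians were -0.65 at 366 of these short introns and -0.36 at 6811 longer ones. Of these, 74.3 and 63.5% lay below 0. A cut at a high wild-type share is made on the baseline of the change and by itself favours falls. Among all tested short introns, the 258 with a wild-type share under 50% had a median of 0.02, with 48.4% below 0. The differences between the lengths were not tested. Another 126 short introns competed mainly with a junction over 100 nt longer that was not such a skipping. Of these, 5 were called (3.97%), 1 higher and 4 lower, and the median of the 126 was -0.34. Where the main competitor was itself a short intron, 0 of 197 were called (edgeR, 6 at an unadjusted p under 0.05). Over all 1211, the median was -0.12 at 635 introns with an annotated main competitor and -0.41 at 576 with an unannotated one. It was -0.29 at 12063 longer introns with an unannotated one. Unannotated competitors are listed only where reads of these libraries showed them.

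Library by library, the median share of the 509 introns against skipping was 96.2, 96.6 and 97.1% in WT 1 to 3 and 95.6, 94.3 and 94.0% in S34F 1 to 3. The means were 96.7% ± 0.48 and 94.7% ± 0.85 (SD, n = 3 each), the groups did not overlap, and WT 1 and S34F 1 lay closest to each other. Summed over the same sites, where the most-read sites weigh most, competing junctions took 10.9, 11.1 and 10.8% of the reads in WT and 10.56, 10.56 and 11% in S34F, and the groups overlapped. The median log2 odds of these introns kept its sign when any 1 library was left out, from -0.55 without WT 1 to -0.28 without S34F 3, the deepest library. The part of its depth in the median was not tested, nor was that of the minimum of competing reads, which was summed over both groups.

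**Figure D3:**
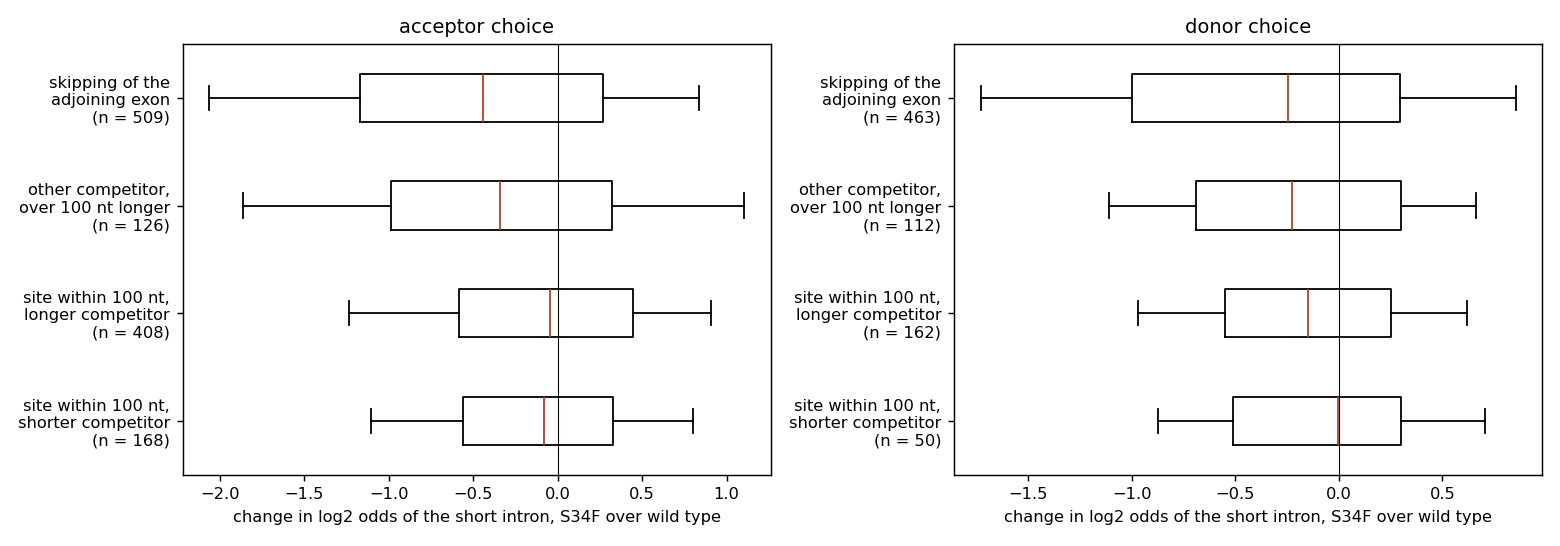
Change in log2 odds of the short intron, S34F over wild type, for acceptor choice (left) and donor choice (right), by the kind of its main competitor. Boxes span the quartiles with the median in red, whiskers the 10th to 90th percentile, and n counts short introns. The skipping group lies furthest to the left for acceptors, with a median of -0.44, and acceptors within 100 nt centre near 0.

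Competition with an acceptor within 100 nt looked different. Falls called at 77407764 on chromosome 7 and 74189568 on chromosome 6, described below, had competing acceptors 104 and 103 nt downstream, just past this limit. For 408 short introns the main competitor was an acceptor 1 to 100 nt further downstream; 1 was called, higher in S34F, and the median was -0.04. Among those 408, a gap of 10 to 100 nt was found at 250 short introns, with 1 call (0.40%) and a median of -0.13; 30 of them (12%) had an unadjusted p under 0.05, 24 with a lower share in S34F. The same kind of pair at 2384 longer introns gave 94 calls (3.94%), 86 of them away from the upstream acceptor, and a median of -0.42, with 537 (22.5%) at an unadjusted p under 0.05, 461 of them lower. At 155 introns of 101 to 150 nt, just beyond the limit, there were 4 calls (2.58%) and a median of -0.23, both between those of the short introns and of all longer ones, whereas the share at an unadjusted p under 0.05 was 11.6% (18 introns, 16 lower). The median depth of the site was 1108.5 reads for the short introns, 1057 for those of 101 to 150 nt and 881 for all longer ones, and the wild-type share of the upstream acceptor was 95.3, 95.7 and 94.7%. No test of the difference between length classes was made. Gaps of 1 to 9 nt gave 0 calls among 158 short introns (edgeR, 5 at an unadjusted p under 0.05) and 0 among 1628 longer ones (45). A competing acceptor inside the short intron, which makes the competitor the shorter one, gave 0 calls at 168 introns (7 at an unadjusted p under 0.05) and a median of -0.08.

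The largest rise was that of an intron from 67201126 to 67201205 on the plus strand of chromosome 16 (80 nt). It held 13.3, 11.5 and 11.8% of the reads at its 5′ splice site in WT 1 to 3 and 40.5, 44 and 26.5% in S34F 1 to 3, and all S34F values were above all WT values. Its main competitor was an annotated junction of 252 nt that skips the next exon. Its mean share was 12.2% ± 0.9997 in WT and 36.99% ± 9.28 in S34F (SD, n = 3 each; edgeR adjusted p = 0.0266), on 34 to 170 reads per library. This was the one short intron called in 3 comparisons: its ratio to the flanking introns rose from 0.127 ± 0.0125 to 0.444 ± 0.121 (edgeR adjusted p = 0.0118), and its level from 0.267 ± 0.0554 to 1.24 ± 0.111 RPM (edgeR adjusted p = 0.0498). In wild type these rest on 8, 7 and 4 reads.

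The only call against an acceptor within 100 nt was an intron from 78187611 to 78187708 on the minus strand of chromosome 1 (98 nt). Its competitor was an annotated junction of 122 nt, whose acceptor lies further downstream. The short form held 59.7, 55.6 and 64.2% of the site in WT and 82.8, 79.1 and 86.9% in S34F, on 91 to 175 reads, without overlap, and rose by 23.1 percentage points (edgeR adjusted p = 0.0129). An intron from 68598714 to 68598802 on the minus strand of chromosome 6 (89 nt) rose from 65.6% ± 2.796 to 81.2% ± 0.462 (edgeR adjusted p = 0.0284). It was the most deeply read of the called sites, with 907 to 3393 reads per library, and its competitor was an unannotated junction of 7457 nt.

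The last rise was an intron that was hardly used in wild type, from 185106639 to 185106737 on the minus strand of chromosome 1 (99 nt). Its reads numbered 0, 1 and 0 in WT and 7, 6 and 9 in S34F, beside 71, 45 and 50 and 38, 27 and 73 reads of an annotated junction of 8858 nt that skips the exon. The share was 0.725% ± 1.26 in WT and 14.5% ± 3.67 in S34F (edgeR adjusted p = 0.01197), with every S34F library above every WT library. Its ratio to the flanking introns also rose, from 0.0106 ± 0.0183 to 0.2497 ± 0.0822 (edgeR adjusted p = 0.0134). A fold is not given, since 2 WT libraries had no read of it.

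Most of the falls started from near-complete use, as most tested short introns did. A wild-type mean share of at least 85% was found at 11 of the 13, and the median over all 1211 tested was 95.9%. The largest was an intron from 91524900 to 91524977 on the minus strand of chromosome 15 (78 nt), next to an exon skipped by an annotated junction of 714 nt. Its share was 79.7, 93.5 and 93.02% in WT and 77.5, 62.8 and 63.5% in S34F. WT 1 lay just above S34F 1, the groups did not overlap, and the mean fell by 20.8 percentage points (edgeR adjusted p = 0.0129). An intron from 93804832 to 93804913 on the minus strand of chromosome 1 (82 nt) had an annotated junction of 13461 nt as its main competitor, and its share was 86.9, 89.7 and 91.2% in WT and 69.7, 67.2 and 70.1% in S34F (edgeR adjusted p = 0.0109). Here the WT values lay within 5 percentage points of each other and so did the S34F values.

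Of the other named falls, 4 were again skipping of the next exon. An intron from 99787893 to 99787972 on the minus strand of chromosome 2 (80 nt) went from 80.9% ± 4.32 to 61.02% ± 9.39 (edgeR adjusted p = 0.0321), against an annotated skipping junction. For the remaining 3 the skipping junction is unannotated. An intron from 50327060 to 50327142 on the minus strand of chromosome 3 (83 nt) went from 92.2% ± 3.72 to 76.3% ± 0.5295 (edgeR adjusted p = 0.0324), and its 3 S34F values lay within 1 percentage point. The intron from 43023746 to 43023818 on the minus strand of chromosome 6 (73 nt) was read 368 to 1091 times per library and held 90.6, 95.3 and 99.1% in WT and 82.5, 77.7 and 80.02% in S34F (edgeR adjusted p = 0.005799). The WT libraries differed among themselves there, with 27, 16 and 3 reads of the skipping junction against 66, 60 and 180 in S34F. The last, from 84215270 to 84215351 on the minus strand of chromosome 16 (82 nt), went from 98.5% ± 1.44 to 83.96% ± 2.797 (edgeR adjusted p = 0.007899).

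The remaining named falls were 2 of the cases whose competitor ends elsewhere. An intron from 77407764 to 77407846 on the plus strand of chromosome 7 (83 nt) lost to an annotated junction of 187 nt and went from 93.6% ± 0.846 to 74.8% ± 8.76, on only 34 to 79 reads per library (edgeR adjusted p = 0.0292). An intron from 16120776 to 16120861 on the plus strand of chromosome 17 (86 nt) was the minor partner of an annotated junction of 16509 nt and went from 25.7% ± 6.04 to 9.01% ± 3.75 (edgeR adjusted p = 0.0475). The other 5 falls were smaller, between 10.3 and 13.7 percentage points. Of these, the intron from 74189568 to 74189658 on the plus strand of chromosome 6 (91 nt) was the one acceptor call kept by DESeq2, and it was singled out after its values were seen. It was not tested without S34F 3, so no acceptor call was kept in all 6 fits that left out a library. No competing read was found in WT, among 63, 104 and 60 reads of the intron, which allows a competing share of up to 1.32% over the 3 libraries, whereas S34F had 4, 4 and 11 competing reads and shares of the short intron of 89.7, 87.5 and 88.7% (edgeR adjusted p = 0.00444). In 9 of the 13 falls WT 1 had the lowest share of the 3 wild-type libraries, and in 2 all of them were at 100%.

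**Figure D4:**
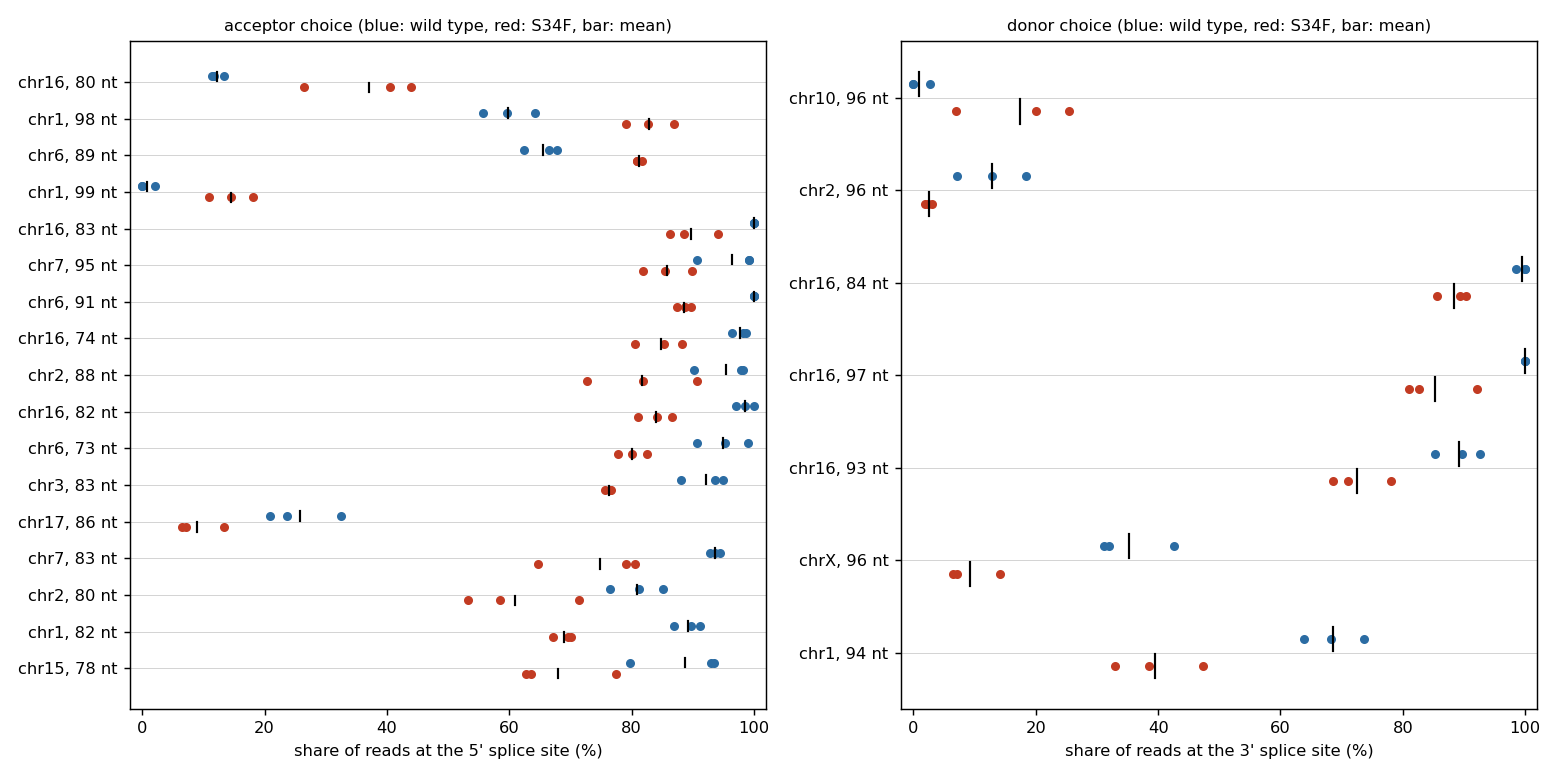
Share of reads (%) at the 5′ splice site for the 17 short introns called in acceptor choice (left) and at the 3′ splice site for the 7 called in donor choice (right). Each point is a library, wild type in blue above and S34F in red below, bars are group means, and rows are named by chromosome and intron length. Nearly all points of one colour stand clear of the other, the exception being an 88 nt intron on chromosome 2.

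Choice of donor changed at 7 of 787 short introns tested (0.889%), 1 higher and 6 lower in S34F, beside 0.934% of 48269 junctions in all (0.458% higher and 0.476% lower). Among 34737 longer introns tested 1.08% were called, 159 higher and 217 lower. Where the wild-type share was at least 50%, the calls were 0 higher and 4 lower at short introns. At longer introns with such a share they were 36 higher and 174 lower. Cuts on the wild-type share again use the baseline of the change, which by itself favours falls at high shares. An unadjusted p under 0.05 was reached by 15.5% of the short introns and 17.3% of all junctions. At any difference, an adjusted p under 0.05 was reached by 18 of the 787 short introns (16 lower) and 983 of all 48269 junctions (2.04%). The median log2 odds were -0.21, against -0.07 for longer introns. Skipping of the exon before the short intron was the main competitor in 463 cases, with 5 calls (1.08%), all lower, and a median of -0.24. Among 12405 longer introns with such a competitor 1.40% were called. With a wild-type share of at least 90%, the median was -0.34 at 341 of these and also -0.34 at 7321 longer introns with such a competitor. Over those 463 the median share was 97.0, 97.3 and 97.7% in WT and 97.0, 96.3 and 95.8% in S34F, and the groups overlapped. A competing donor within 100 nt gave 0 calls at 162 introns with the longer competitor and 0 at 50 with the shorter (edgeR, 12 and 1 at an unadjusted p under 0.05). The 7 calls became 13 without WT 1, 2 without WT 2, 3 each without WT 3 or S34F 1, 1 without S34F 2 and 0 without S34F 3 (64 at an unadjusted p under 0.05). DESeq2 called 4 and limma 0 (97 at an unadjusted p under 0.05).

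The largest fall in donor choice was an intron from 40029414 to 40029507 on the minus strand of chromosome 1 (94 nt). Its share at the 3′ splice site was 63.8, 68.2 and 73.6% in WT and 47.3, 32.9 and 38.4% in S34F, on 258 to 1150 reads per library. Every WT value lay above every S34F value, and the mean went from 68.6% ± 4.91 to 39.5% ± 7.27, with an annotated skipping junction of 681 nt as the main competitor (edgeR adjusted p = 0.01301). An intron from 106359285 to 106359380 on the minus strand of chromosome X (96 nt) held 31.9, 42.6 and 31.1% in WT and 14.2, 6.48 and 7.07% in S34F (edgeR adjusted p = 0.00612), again without overlap. Its ratio to the flanking introns fell as well, from 0.4496 ± 0.0296 to 0.132 ± 0.05104 (edgeR adjusted p = 0.000408), a call kept in every fit that left out a library.

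Smaller falls were seen at an intron from 4871455 to 4871547 on the minus strand of chromosome 16 (93 nt), from 89.2% ± 3.74 to 72.5% ± 4.88 (edgeR adjusted p = 0.0384), and at an intron from 203164861 to 203164956 on the plus strand of chromosome 2 (96 nt), a minor form that went from 12.8% ± 5.65 to 2.47% ± 0.588 (edgeR adjusted p = 0.00636). The latter competed with an annotated junction of 2327 nt from a donor further upstream. The single rise was an intron from 13151016 to 13151111 on the plus strand of chromosome 10 (96 nt), which had 0, 0 and 1 reads in WT and 29, 2 and 32 in S34F. Its share was 0.901% ± 1.56 in WT and 17.4% ± 9.53 in S34F (edgeR adjusted p = 0.0285), and S34F 2, with 2 reads, was far below the other S34F libraries.

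At 2 places on chromosome 16 a pair of short introns framed one exon, and both sides of the same skipping were called. These pairs were singled out after their values were seen. The first pair runs from 3075990 to 3076063 and from 3076168 to 3076251 on the plus strand, with an exon of 104 nt between. An unannotated junction of 262 nt that spans all of it had 2, 0 and 0 reads in WT and 11, 12 and 29 in S34F. The upstream intron's share at its 5′ site was 96.4, 98.1 and 98.6% in WT and 88.3, 80.6 and 85.3% in S34F (edgeR adjusted p = 0.00833), and the downstream intron's share at its 3′ site was 98.4, 100 and 100% and 90.4, 85.5 and 89.3% (edgeR adjusted p = 0.0104). The upstream intron also fell against its flanking introns, from a ratio of 0.916 ± 0.0738 to 0.576 ± 0.0473 (edgeR adjusted p = 0.0104). The flanking intron used downstream, 3076415 to 3076516, lies beyond the second intron of the pair. With flanking introns within 200 nt the log2 change was -0.49, and no call was made (edgeR adjusted p = 0.0743).

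The second pair runs from 4847842 to 4847938 and from 4847989 to 4848071 on the minus strand, around an exon of 50 nt. Its annotated skipping junction of 230 nt had 0, 0 and 0 reads in WT and 5, 4 and 14 in S34F. No reads in WT allow a skipping share of up to 1.75% at the 5′ site of the upstream intron, over the 3 libraries together. In S34F the shares of the short introns were 94.2, 88.6 and 86.3% at that site (edgeR adjusted p = 0.0117) and 92.1, 80.95 and 82.7% at the 3′ site of the downstream one (edgeR adjusted p = 0.0229). No fold is given where a group had no read.

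Relative to their neighbours, most short introns were read about as often. The wild-type ratio lay between 0.5 and 2 for 89.96% of 5560 short introns tested and for 81.9% of other introns. The median ratio over these introns was 0.975, 0.978 and 0.980 in WT 1 to 3 and 0.965, 0.972 and 0.967 in S34F 1 to 3, and the groups did not overlap. In other annotated introns the medians were 0.950, 0.946 and 0.943 in WT and 0.944, 0.936 and 0.943 in S34F, with overlap. Of the 5560, 15 were called (0.270%), 10 higher and 5 lower, beside 0.814% of all 95804 introns tested (0.501% higher and 0.313% lower). An unadjusted p under 0.05 was reached by 351 short introns (6.31%) and by 9.04% of all. Without WT 2 there were 5 calls and without S34F 3 there were 6, while DESeq2 called 6 and limma 0 (329 at an unadjusted p under 0.05).

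The calls were mostly at introns read less often than their neighbours: 13 of the 15 had a wild-type ratio under 0.5, including all 10 that rose. Among all 5560, 8.81% had a ratio that low, and 16.9% of other annotated introns tested. The wild-type ratio is also the baseline of the change, so a grouping by it favours rises at low ratios. The ratios of called longer introns are not given here. The smallest adjusted p was that of an intron from 130498171 to 130498264 on the minus strand of chromosome 5 (94 nt), used at a few percent of its neighbours. Its ratio was 0.0292, 0.0271 and 0.0272 in WT and 0.0634, 0.0532 and 0.0778 in S34F, on 68, 55 and 40 and 79, 62 and 127 reads of the intron. All S34F values were higher, with a change of 1.24 ± 0.15 (log2 ± SE; edgeR adjusted p = 9.7e-05). This call, the one on chromosome X above and a rise at 76255743 to 76255836 on chromosome 1, from 0.222 ± 0.0296 to 0.409 ± 0.0497 (edgeR adjusted p = 0.000526), were the 3 kept whichever library was left out. The intron on chromosome 1 was singled out after its values were seen.

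Further minor introns rose by larger factors on fewer reads. At 75197401 to 75197494 on the minus strand of chromosome 15 (94 nt) the ratio was 0.0564 ± 0.01397 in WT and 0.192 ± 0.0312 in S34F, on 3, 4 and 2 and 13, 6 and 16 reads (edgeR adjusted p = 0.04298). At 104325402 to 104325488 on the plus strand of chromosome 12 (87 nt) it was 0.0112 ± 0.00481 and 0.0347 ± 0.00789 (edgeR adjusted p = 0.00938). At 121336263 to 121336358 on the minus strand of chromosome 10 (96 nt) it was 0.0449 ± 0.0271 and 0.134 ± 0.0228 (edgeR adjusted p = 0.00455), and WT 1 was the highest of the wild-type libraries. All 3 are introns of which the neighbouring junctions were read many times more often. The other 2 named rises lay at 12052521 to 12052611 on the plus strand of chromosome 1 (91 nt), with 0.0507 ± 0.0252 and 0.142 ± 0.0578, and at 2578561 to 2578650 on the plus strand of chromosome 16 (90 nt), with 0.254 ± 0.103 and 0.638 ± 0.163 (edgeR adjusted p = 0.0318 and 0.0103). With flanking introns within 200 nt, the rises on chromosomes 15 and 16 were not called (edgeR adjusted p = 0.190 and 0.142). Those on chromosomes 1, 10 and 12 were still called.

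Among the falls, an intron from 21832205 to 21832285 on the minus strand of chromosome 22 (81 nt) had ratios of 0.6497, 0.651 and 0.682 in WT and 0.506, 0.461 and 0.368 in S34F. The WT libraries were close together, S34F 3 was the lowest, and the change was -0.62 ± 0.12 (log2 ± SE; edgeR adjusted p = 0.01004). It was -0.41 without S34F 3 and -0.21 with multi-mapped reads added, and neither fit made the call (edgeR adjusted p = 0.201 and 0.133). An intron from 45808316 to 45808406 on the plus strand of chromosome 1 (91 nt) went from 0.248 ± 0.0966 to 0.08497 ± 0.0275 (edgeR adjusted p = 0.0234). A minor intron fell at 166780380 to 166780456 on the minus strand of chromosome 6 (77 nt), with 0.0394 ± 0.0224 in WT and 0.00696 ± 0.00133 in S34F, on 6, 9 and 14 and 2, 1 and 3 reads (edgeR adjusted p = 0.0474).

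Junction levels of short introns were called at 12 of 6338 (0.189%), 3 higher and 9 lower in S34F, beside 0.196% of all 114172 annotated junctions tested (0.0823% higher and 0.114% lower). An unadjusted p under 0.05 was reached by 792 short introns (12.5%) and by 13.6% of all. The levels as a whole stood slightly higher in S34F, with a median log2 change of 0.09 against 0.01 for longer introns, and 39.3% of short introns lay below 0. The median was 0.14 without WT 1 and 0.04 without S34F 3. This was not particular to the limit of 100 nt: it was 0.10 at 101 to 150 nt, 0.09 at 151 to 300 nt, -0.02 at 1001 to 10000 nt and -0.04 over 10000 nt. The 12 calls became 32 without WT 1, 22 without S34F 2, 2 without S34F 1 and 0 without WT 2, WT 3 or S34F 3 (edgeR, 467, 484 and 493 at an unadjusted p under 0.05). DESeq2 called 60, among them all 12.

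**Figure D5:**
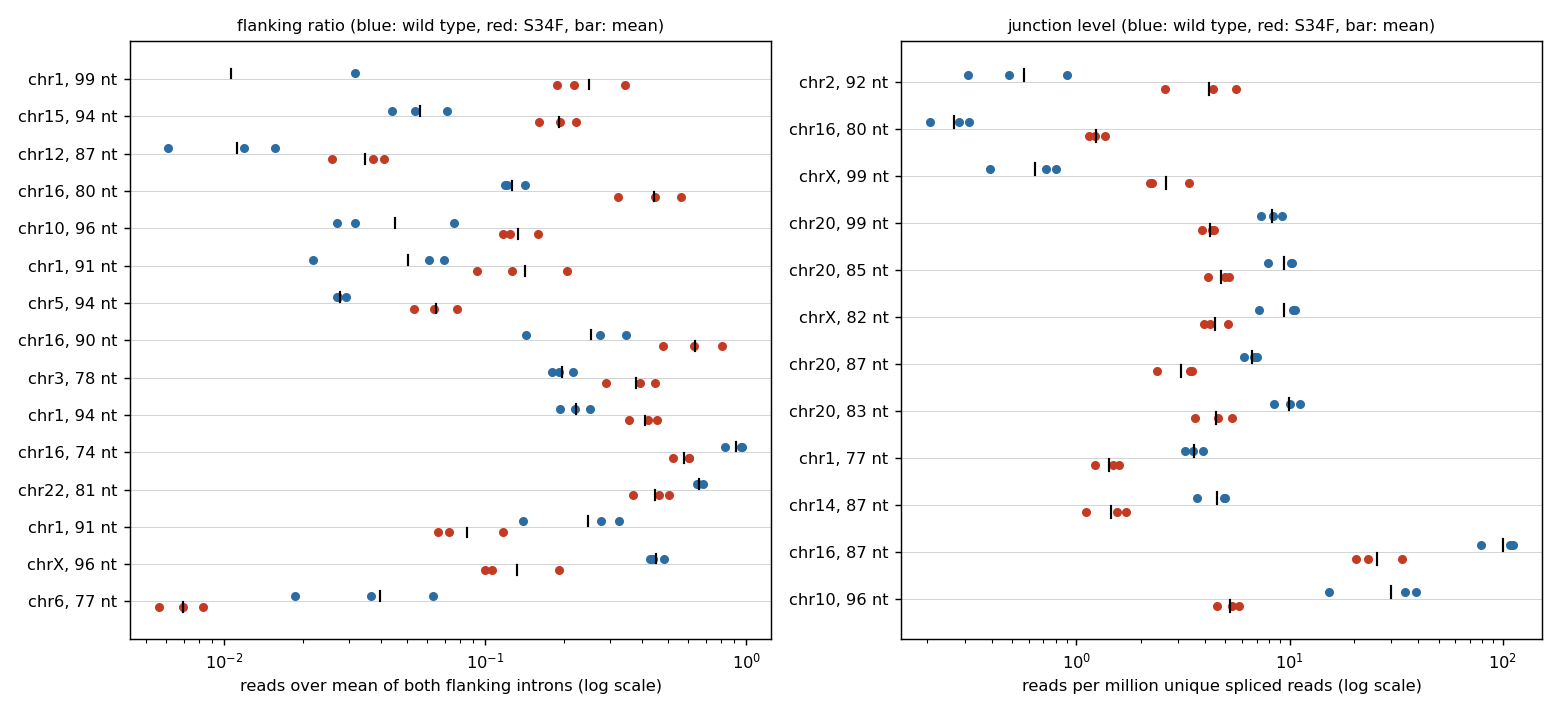
Values of the 15 short introns called by ratio to the flanking introns (left, reads over the mean of both neighbours) and of the 12 called by level (right, RPM), both on log axes. Each point is a library, wild type in blue above and S34F in red below; bars are group means, rows are named by chromosome and length, and 2 wild-type libraries at 0 (chromosome 1, 99 nt) cannot be drawn. The ratio calls sit mostly below 0.5, and 4 of the level calls are neighbours on chromosome 20.

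Of the 9 falls in level, 4 lie within 21307045 to 21328978 on the plus strand of chromosome 20 and moved together; this group was noticed after the values were seen. Their introns of 83, 85, 99 and 87 nt, in order of position, had log2 changes of -1.14, -0.99, -0.99 and -1.11. The first had 8.45, 11.2 and 10.1 RPM in WT and 4.603, 3.596 and 5.35 in S34F (edgeR adjusted p = 0.0359), and all WT libraries stood above all S34F libraries. The middle pair frames an exon of 134 nt. They are neighbours along one strand, and whether they belong to one transcript was not analysed here.

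The strongest falls in level were single introns. At 74033819 to 74033914 on the plus strand of chromosome 10 (96 nt) the level was 15.3, 34.9 and 39.3 RPM in WT and 5.37, 5.81 and 4.56 in S34F, with a log2 change of -2.52 ± 0.34 (SE; edgeR adjusted p = 0.03600). WT 1 was well below WT 2 and WT 3 but above all S34F values. At 10481148 to 10481234 on the plus strand of chromosome 16 (87 nt) it was 108, 78.98 and 112 and 23.4, 33.6 and 20.4, a log2 change of -1.95 ± 0.25 (SE; edgeR adjusted p = 0.0201), and this was the most-read intron among the level calls. Introns from 50120786 to 50120872 on the minus strand of chromosome 14 (87 nt), from 155279757 to 155279833 on the plus strand of chromosome 1 (77 nt) and from 122747408 to 122747489 on the minus strand of chromosome X (82 nt) had log2 changes of -1.65, -1.33 and -1.09 (edgeR adjusted p = 0.0282, 0.04298 and 0.0496). None of these 5 was called in splice site choice or flanking ratio.

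Besides the intron on chromosome 16 described above, 2 short introns rose in level. The larger rise was at 98088678 to 98088769 on the minus strand of chromosome 2 (92 nt), with 0.904, 0.481 and 0.3096 RPM in WT and 2.600, 4.37 and 5.63 in S34F and a log2 change of 2.83 ± 0.39 (SE; edgeR adjusted p = 0.0282). The other, from 48823252 to 48823350 on the minus strand of chromosome X (99 nt), had 0.393, 0.802 and 0.722 in WT and 2.26, 2.21 and 3.39 in S34F, a log2 change of 2.03 ± 0.32 (SE; edgeR adjusted p = 0.0348). At both, the lowest S34F library stood above the highest WT library. A level cannot tell more transcript from more splicing of it.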

How the data were processed

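Each of the 6 libraries came with 1 deposited junction table of 9 columns in the STAR layout; STAR and hg19 are named in the submitters' processing notes, while its version, the annotation and any filter on junctions are not given in the sources used here. The deposited values are raw counts of uniquely mapped and of multi-mapped reads per junction, whole numbers with no normalization. The tables were joined by position, with 0 where a junction was missing, and groups were taken from the genotype labels.

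Comparisons used unique counts in edgeR 4.0.16 (R 4.3.3): the quasi-likelihood F-test with robust dispersions, fitted over all junctions and adjusted by Benjamini-Hochberg over all. Choice and ratio models held 2 counts per library with an intercept per library, so that depth and abundance drop out; levels used TMM. A site was tested with 20 or more reads in each library and 10 or more for and against the intron in total; a level needed 10 reads in 3 libraries. The standard error is the coefficient over the root of F. The models were tested on simulated data.

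Named introns are, per comparison, the 8 called introns with the largest rise and the 8 with the largest fall, the 10 most-read and the 5 shortest with at least 20 reads in every library; others are marked in the text. The introns and lists were chosen with earlier results of these data known. Lists of genes could not be applied without gene positions in hg19 and were not analysed here. Alternatives were DESeq2 1.42.0, limma 3.58.1, other filters, multi-mapped reads, another length limit, the replicate block and leaving out each library. The labels do not say whether same-numbered libraries are pairs. Their deviations had r = -0.17, -0.15 and -0.02 for numbers 1 to 3, and differently numbered libraries had r from -0.13 to 0.23. Numbers were not used as pairs in the main fits. Intervals are 95% Wilson intervals; with floors of 3 counts they cover counting error only.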

Additional observations from a re-analysis of the deposited data

Results flagged for a closer look

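Multi-mapped reads, which the comparisons above leave out, were also present at short introns. They made up 3.34, 3.46 and 3.27% of the reads there in WT 1 to 3 and 3.31, 3.44 and 3.83% in S34F 1 to 3, and the groups overlapped. At longer introns the share was higher, from 6.36 to 8.07%. These values are listed because they lie outside the measurement used for the comparisons, and 565 short introns were seen by such reads alone.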

How the results depend on the processing

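The counts of called short introns moved with the processing in all 4 comparisons, while 0 of the 51 calls turned direction in the alternatives that tested them; 4 calls were not tested in at least 1 of the fits without a library. Without the low-count filter there were 9 calls in acceptor choice, 4 in donor choice, 24 in flanking ratio and 234 in junction level, against 17, 7, 15 and 12. With a minimum of 50 reads acceptor choice gave 9. DESeq2 gave 1, 4, 6 and 60. Tests with limma gave 0, 0 and 0 for both choices and the ratio (189, 97 and 329 at an unadjusted p under 0.05) and 8 for the level. With no minimum difference the choices gave 43 and 18. Taking flanking introns within 200 nt instead of 500 nt gave 12 ratio calls. Limiting the length to 50 to 90 nt left 1 donor call and 7 ratio calls. Leaving out 1 library in turn gave 0 to 31, 0 to 13, 5 to 18 and 0 to 32 calls. The replicate number as a block gave 15, 6, 14 and 0 calls (edgeR, 631 levels at an unadjusted p under 0.05), so that all 12 level calls were lost. The labels do not say whether same-numbered libraries belong together. The causes were not tested. Calls at sites with under 100 reads per library rest on few competing reads, and leaving out S34F 3, the deepest library, left 0 calls of both choices and of the level.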

Other observations

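Outside the annotation, the tables listed 17698 junctions of 50 to 100 nt with a splice motif. They took 0.0306, 0.0288 and 0.0325% of the unique reads in WT 1 to 3 and 0.0342, 0.0298 and 0.0368% in S34F 1 to 3, and the groups overlapped. Below the limit of 50 nt, the annotation held 76 introns with such a motif, the shortest of 1 nt, which had 412 to 782 unique reads in all per library. A length of 1 nt is an entry of the annotation used by the authors and was not examined further.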
